A study of Mus musculus with 9 samples.

Results

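The fibrillar collagen genes *Col1a1*, *Col1a2*, *Col3a1*, *Col5a1*, *Col5a2* and *Col5a3* were followed in epididymal adipose tissue of obese mice during weight loss. They were chosen by name as the genes of the type I, III and V collagen chains, 6 of the 56748 genes in the table of counts, and all 6 were among the 18510 genes tested. Wild-type male C57BL/6J mice were fed a high-fat diet (HFD) for 8 weeks from 8 weeks of age (Pre) and were then switched to a standard diet (SD) for 1 week (WL1) or 2 weeks (WL2), so that the phases correspond to 16, 17 and 18 weeks of age. RNA of the whole tissue was sequenced in 3 libraries per phase, 9 in all. No library of mice kept on HFD for the same weeks was analysed here, so the change of diet and the time that passed cannot be told apart. The labels do not say whether each library came from 1 mouse, and p-values then measure the spread between these libraries.

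Fibrillar collagens are the rope-like proteins of connective tissue. Type I and type III chains form the bulk of the fibrils, and type V chains are built into the same fibrils, where they help to start them and limit their width. The chains are modified and folded in the endoplasmic reticulum, secreted as procollagens, trimmed by proteases that remove the propeptides, and cross-linked by lysyl oxidases. In adipose tissue, fibroblasts and their progenitors are the main source of type I and III collagen, and collagen that accumulates around adipocytes in obesity is part of adipose tissue fibrosis.

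*Col1a1* (ENSMUSG00000001506, chromosome 11, 94827050 to 94843868, plus strand) and *Col1a2* (ENSMUSG00000029661, chromosome 6, 4504814 to 4541544, plus strand) encode both chains of type I collagen. *Col3a1* (ENSMUSG00000026043, chromosome 1, 45350698 to 45388866, plus strand) encodes the single kind of chain in type III collagen. *Col5a1* (ENSMUSG00000026837, chromosome 2, 27776437 to 27929526, plus strand) and *Col5a2* (ENSMUSG00000026042, chromosome 1, 45413481 to 45542442, minus strand) encode the chains of the common form of type V collagen. *Col5a3* (ENSMUSG00000004098, chromosome 9, 20681346 to 20726363, minus strand) encodes a further type V chain that is found in fewer tissues. *Col3a1* and *Col5a2* are neighbours that point towards each other, with 24614 bases between them. These coordinates are those of the authors' table. For 1 of the 6 genes (*Col1a2*) they equal those of GENCODE M21 on GRCm38 and for 5 they do not, so they are given without a build.

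The sequence just before the annotated start was found for 4 of the 6 genes (*Col1a2*, *Col3a1*, *Col5a1* and *Col5a3*) and is shown as the start region of genes of 1 pathway whose changes are described below gene by gene. The windows are 120 bases long, from RefSeq on GRCm38.p6, written 5′ to 3′ on the strand of the gene, and lie at chr6:4505373-4505492 (plus strand) for *Col1a2*, chr1:45311418-45311537 (plus strand) for *Col3a1*, chr2:27886261-27886380 (plus strand) for *Col5a1* and chr9:20815118-20815237 (minus strand) for *Col5a3*. Capitals mark matches to CCAAT (letters of the CCAAT box), GGGCGG (of the GC box) and TATAAA (of the TATA box). Each was searched on both strands, so that CCGCCC is a GGGCGG match on the other strand. The *Col1a2* window lies between annotated exons of a longer transcript model and ends 125 bases before the RefSeq start. The windows of *Col5a1* and *Col5a3* end 44 and 50 bases before theirs, and that of *Col3a1* ends directly before its start.
Col1a2: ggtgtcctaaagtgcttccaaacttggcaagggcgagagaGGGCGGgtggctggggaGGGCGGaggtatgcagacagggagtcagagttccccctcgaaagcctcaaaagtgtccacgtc
Col3a1: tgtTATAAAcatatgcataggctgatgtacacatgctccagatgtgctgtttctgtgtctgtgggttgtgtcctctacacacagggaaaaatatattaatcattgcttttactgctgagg
Col5a1: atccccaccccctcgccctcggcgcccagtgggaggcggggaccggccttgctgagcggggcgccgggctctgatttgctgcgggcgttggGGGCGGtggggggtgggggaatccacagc
Col5a3: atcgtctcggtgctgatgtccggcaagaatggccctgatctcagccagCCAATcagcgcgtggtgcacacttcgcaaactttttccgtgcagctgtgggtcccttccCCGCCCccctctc
*Col1a2* held 2 GGGCGG matches, *Col5a1* held 1, *Col5a3* held 1 beside 1 CCAAT match, and *Col3a1* held only 1 TATAAA match. The TATAAA match lies near the 5′ end of its window, away from the start. Of 32851 windows of 120 bases of all genes, 26.5% held GGGCGG, 21.3% CCAAT and 6.34% TATAAA. Those windows all end directly before the start, so their position differs from that of the *Col1a2*, *Col5a1* and *Col5a3* windows. The GC content was 75.8% for *Col5a1*, 60.8% for *Col5a3*, 60% for *Col1a2* and 40% for *Col3a1*, against a median of 54.2% for all windows. These matches describe the letters of the windows only.

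The libraries held 16434450 to 22729072 counts. The 6 genes took 0.449% to 0.598% of all counts at Pre, 0.386% to 0.664% at WL1 and 0.279% to 0.304% at WL2. The mitochondrial share of the counts was 3.15% to 3.57% at Pre, 1.86% to 2.03% at WL1 and 2.28% to 2.88% at WL2. Its part in the results was not tested. Because whole tissue was sequenced, fewer cells of a type and less RNA per cell cannot be told apart.

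Levels of different genes are compared as FPKM (fragments per kilobase of gene, scaled to the size of the library), which takes gene length into account. The order of the genes, the ratios between them and their shares thus rest on the lengths in the authors' table. That length is 12426 bases for *Col1a2* and 6563 for *Col1a1*. In CPM at Pre, the mean of *Col1a2* (874) lay above those of *Col1a1* (749) and *Col5a1* (661). At Pre the order of mean FPKM was *Col3a1* (194 ± 34.2, SD, n = 3), *Col5a3* (150 ± 10.1), *Col1a1* (107 ± 26.8), *Col5a1* (72.5 ± 8.75), *Col1a2* (66.0 ± 10.7) and *Col5a2* (28.8 ± 5.37). *Col5a3* thus had the second highest mean. Neighbours in this order overlapped between libraries except *Col5a3* above *Col1a1* and *Col1a2* above *Col5a2*. At WL1 and at WL2 the order of means was *Col3a1*, *Col1a1*, *Col1a2*, *Col5a3*, *Col5a1* and *Col5a2*, so *Col5a3* had moved from the second place to the fourth. At WL1 the first 3 pairs of neighbours overlapped, and at WL2 only *Col1a2* and *Col5a3* did. *Col1a2* lay above *Col5a3* in 1 of the 3 libraries at WL1 and in all 3 at WL2, so the fourth place at WL1 is one of means only.

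*Col3a1* had 155, 207 and 220.0 FPKM in Pre replicates 1 to 3, 156, 143 and 277 at WL1, and 112, 97.9 and 104 at WL2. *Col1a1* had 78.4, 131 and 112 FPKM at Pre, 103, 79.6 and 155 at WL1, and 62.2, 53.0 and 60.8 at WL2. *Col1a2* had 53.9, 74.2 and 69.9 FPKM at Pre, 66.1, 52.0 and 95.6 at WL1, and 45.9, 45.0 and 50.2 at WL2. For these type I and III genes the Pre and WL1 libraries overlapped, WL1 replicate 3 was the highest of the 9, and every WL2 library lay below every library of the other phases. *Col5a3* had 146, 143 and 162 FPKM at Pre, 68.7, 63.6 and 79.2 at WL1, and 33.9, 43.6 and 47.5 at WL2. *Col5a1* had 63.6, 72.7 and 81.1 FPKM at Pre, 45.7, 41.0 and 53.1 at WL1, and 22.0, 23.02 and 27.2 at WL2. Both genes were lower at each successive phase, with no overlap between any phases. *Col5a2* had 27.1, 24.5 and 34.8 FPKM at Pre, 22.1, 19.1 and 29.6 at WL1, and 12.5, 12.6 and 14.8 at WL2, so that Pre and WL1 overlapped and WL2 lay below both. WL1 replicate 3 was the highest WL1 library for all 6 genes.

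**Figure D1:**
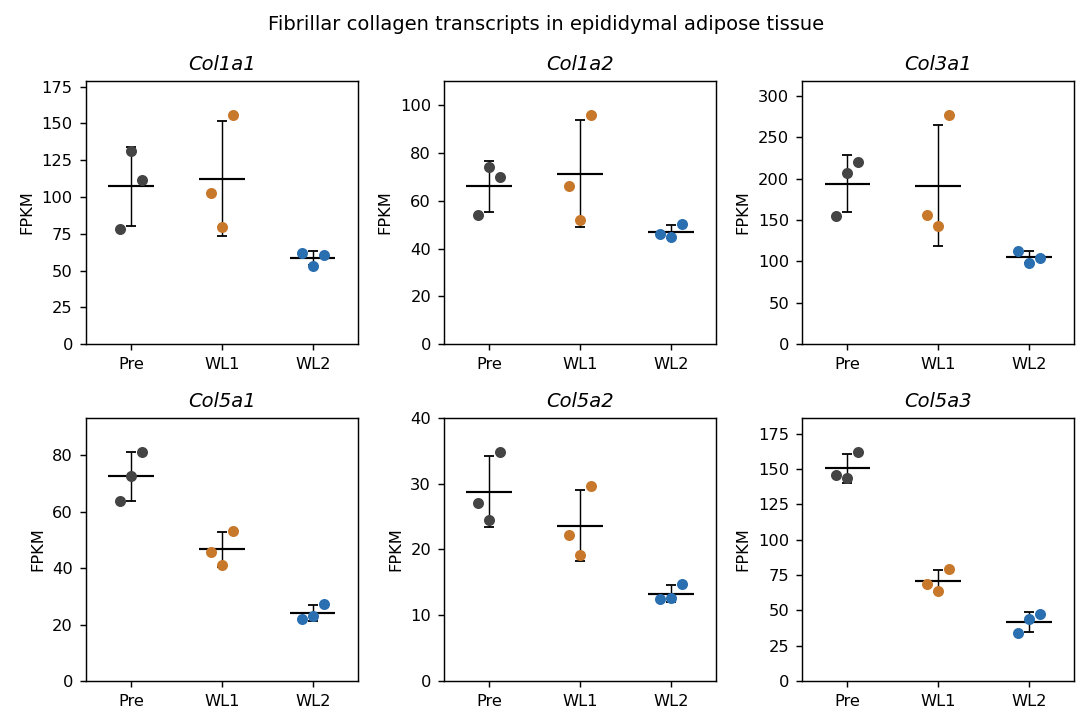
Levels of the 6 fibrillar collagen genes in FPKM (vertical axis) at Pre, WL1 and WL2, with 1 panel per gene. Points are the 3 libraries of a phase, bars are means and error bars are SD. *Col5a3* and *Col5a1* decline at both steps, while the type I and III genes overlap between Pre and WL1 and are lowest at WL2.

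After 1 week of SD, the type V genes *Col5a3* and *Col5a1* were lower and the type I and III genes were not distinguishable from Pre. *Col5a3* stood at 47.5% of its Pre level (log2 fold change -1.07, SE 0.14, edgeR adjusted p = 0.00204) and *Col5a1* at 65.2% (-0.62, SE 0.14, edgeR adjusted p = 0.0261). Here and below, fold changes and adjusted p-values come from edgeR's quasi-likelihood test on the counts, with Benjamini-Hochberg adjustment over all genes tested and a threshold of 0.05, and intervals are 95%. Thus 2 of the 6 genes passed, both lower, where 7.29% of all genes tested passed in either direction and 4.69% as lower. For *Col5a1* and *Col5a3* all WL1 libraries lay below all Pre libraries, which held for 13.9% of all genes, and for the other 4 genes the libraries overlapped. The log2 fold change of *Col5a2* was -0.27 (interval -0.66 to 0.13, edgeR adjusted p = 0.390). Those of *Col1a1* (0.09, interval -0.45 to 0.63), *Col1a2* (0.13, interval -0.32 to 0.58) and *Col3a1* (0.0018, interval -0.52 to 0.52) were near 0, with intervals that leave room for changes of up to about that size either way. Without WL1 replicate 3 these values became -0.22, -0.15 and -0.37, none of which passed. Without Pre replicate 1, *Col1a1* became -0.09 and *Col3a1* -0.13. The call of *Col5a3* stood with each library left out. That of *Col5a1* was lost without Pre replicate 2 (-0.62, adjusted p = 0.05004, just over the threshold), Pre replicate 3 (-0.53, 0.0635), WL1 replicate 1 (-0.60, 0.0769) or WL1 replicate 2 (-0.54, 0.0890), all from edgeR.

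After 2 weeks of SD, all 6 genes lay below Pre in every library, and 4 passed the test. The largest fold changes were those of the 3 type V genes. *Col5a3* stood at 27.7% of its Pre level (log2 fold change -1.85, SE 0.14, edgeR adjusted p = 4.31e-05), *Col5a1* at 33.2% (-1.59, SE 0.14, edgeR adjusted p = 0.000103) and *Col5a2* at 46.1% (-1.12, SE 0.18, edgeR adjusted p = 0.00365). *Col3a1* stood at 54.1% (-0.89, SE 0.24, edgeR adjusted p = 0.0416). *Col1a1* had a log2 fold change of -0.87 (SE 0.24, interval -1.41 to -0.32) and missed the threshold (edgeR adjusted p = 0.0505), and *Col1a2* had -0.49 (SE 0.20, interval -0.94 to -0.04, edgeR adjusted p = 0.163). Of all genes tested, 10% passed in either direction, 6.66% as lower, and 15.8% had all WL2 libraries below all Pre libraries. Lower calls were 66.5% of all calls, but 35.8% with library totals in place of TMM scaling, a change that moved the median log2 fold change of all genes by 0.149 (39.0% in place of 64.3% at WL1 against Pre, and 51.7% in place of 64.5% at WL2 against WL1 with upper-quartile factors). The median of the 6 genes was -1.002, against 0.0084 for all genes tested, and all 6 lay below the median of all genes. This held under each scaling tried, but a change of scaling moves all genes and their median almost alike. It could thus hardly come out otherwise and is no test of the scaling.

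The calls of the 3 type V genes at WL2 stood with each library left out. The call of *Col3a1* was lost without Pre replicate 2 (-0.84, edgeR adjusted p = 0.0889), Pre replicate 3 (-0.79, 0.103), WL2 replicate 1 (-0.95, 0.0691), WL2 replicate 2 (-0.83, 0.147) or WL2 replicate 3 (-0.87, 0.124), and with library totals (-0.74, 0.0606). *Col1a1* passed without Pre replicate 1 (-1.05, edgeR adjusted p = 0.0301), WL1 replicate 2 (-0.86, 0.0409) or WL1 replicate 3 (-0.85, 0.0200) and with DESeq2 (-0.87, 0.00596). Its side of the threshold thus turned on single libraries and on the tool.

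Between WL1 and WL2, all 6 genes had lower values at WL2 with no overlap of libraries, and the 3 type V genes passed the test. The log2 fold change was -0.97 for *Col5a1* (SE 0.14, edgeR adjusted p = 0.00862), -0.85 for *Col5a2* (SE 0.18, edgeR adjusted p = 0.0333) and -0.78 for *Col5a3* (SE 0.14, edgeR adjusted p = 0.0200). The type I and III genes had values of the same size with larger errors, -0.96 for *Col1a1* (SE 0.25, edgeR adjusted p = 0.0591), -0.89 for *Col3a1* (SE 0.24, 0.0662) and -0.62 for *Col1a2* (SE 0.20, 0.114). Of all genes tested, 3.68% passed in either direction, 2.37% as lower, and 16.4% had all WL2 libraries below all WL1 libraries. All 6 genes passed with DESeq2 and with no filter on low counts. Without WL2 replicate 2, *Col5a1* (-0.93, edgeR adjusted p = 0.0665), *Col5a2* (-0.81, 0.164) and *Col5a3* (-0.81, 0.0988) all lost their calls. Without WL1 replicate 3, *Col5a2* (-0.64, edgeR adjusted p = 0.124) and *Col5a3* (-0.67, 0.0900) did, and *Col5a2* also without WL1 replicate 1 (-0.90, 0.0631) or WL2 replicate 3 (-0.93, 0.0932). *Col1a1* passed without Pre replicate 1 (edgeR adjusted p = 0.0450) or Pre replicate 2 (0.0447). The 3 comparisons share libraries, so they are not independent of each other.

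**Figure D2:**
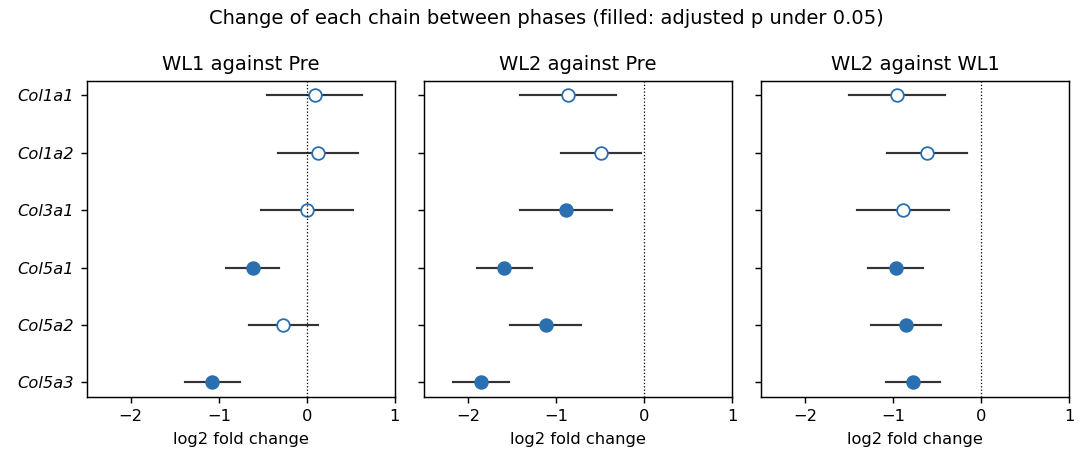
Log2 fold changes of the 6 genes from edgeR (horizontal axis) with 95% intervals for WL1 against Pre, WL2 against Pre and WL2 against WL1. Filled points have an adjusted p under 0.05: *Col5a1* and *Col5a3* in all 3 comparisons, *Col5a2* in the 2 with WL2, and *Col3a1* at WL2 against Pre.

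The balance between chains was compared through ratios of FPKM within each library, which do not depend on the scaling between libraries. Over the 3 phases, 0 of the 15 pairs of genes passed after adjustment (exact permutation test over 280 divisions of the libraries, one-sided on F, smallest adjusted p = 0.0536), and 12 had an unadjusted exact p under 0.05. The smallest p that this design can give is 0.00357, and 3 libraries against 3 could not go below 0.1. Adjusted over the 15 pairs, a single pair alone at that smallest p has 0.0536. Such a pair could thus not pass even with complete separation of the phases, and the count of 0 does not show that the ratios were unchanged. All 9 ratios of a type I or III gene to a type V gene had a higher mean at WL2 than at Pre. The size of this difference varied, and 2 of the 9 showed no clear shift. The ratios of *Col1a1* and of *Col3a1* to *Col5a2* overlapped between Pre and WL2 (exact permutation p = 0.407 and 0.429). The ratio of *Col1a2* to *Col5a1* was 0.847, 1.02 and 0.862 at Pre, 1.45, 1.27 and 1.80 at WL1, and 2.09, 1.95 and 1.84 at WL2, with no overlap between phases (exact permutation p = 0.00357, adjusted p = 0.0536). That of *Col1a2* to *Col5a3* was 0.370, 0.518 and 0.432 at Pre, 0.962, 0.817 and 1.21 at WL1, and 1.35, 1.03 and 1.06 at WL2, where WL1 and WL2 overlapped and both lay above Pre (exact permutation p = 0.0143, adjusted p = 0.0536).

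Within a collagen type, the ratio of *Col1a1* to *Col1a2*, the chains of type I collagen, was 1.61 ± 0.158 (SD, n = 3) at Pre, 1.57 ± 0.0493 at WL1 and 1.25 ± 0.0931 at WL2 (exact permutation p = 0.0286, adjusted p = 0.0536). That of *Col5a1* to *Col5a2* was 2.55 ± 0.363, 2.00 ± 0.184 and 1.81 ± 0.0430 (exact permutation p = 0.0107, adjusted p = 0.0536). The type V ratios to *Col5a3* went the other way, with higher means at WL1 and WL2 than at Pre. That of *Col5a1* was 0.482 ± 0.0393, 0.660 ± 0.0135 and 0.583 ± 0.0605 (exact permutation p = 0.00714, adjusted p = 0.0536). That of *Col5a2* was 0.191 ± 0.0224, 0.332 ± 0.0377 and 0.322 ± 0.0407 (exact permutation p = 0.025, adjusted p = 0.0536). By contrast, the ratio of *Col1a1* to *Col3a1* was 0.549 ± 0.0740, 0.592 ± 0.0578 and 0.559 ± 0.0218 (exact permutation p = 0.621). Leaving out Pre replicate 2 brought 9 of the 15 pairs past the adjusted threshold and leaving out WL1 replicate 3 brought 4. As a description, the type V chains made up 40.9% ± 4.16 of the summed FPKM of the 6 genes at Pre, 28.1% ± 4.03 at WL1 and 27.3% ± 3.13 at WL2. *Col5a3* alone made up 59.8% ± 1.70, 50.2% ± 1.25 and 52.6% ± 2.75 of the type V sum.

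**Figure D3:**
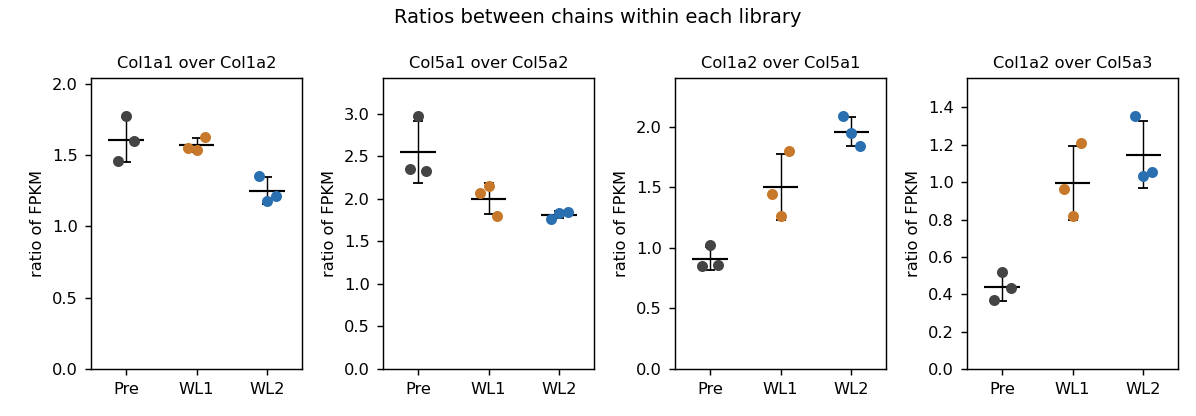
Ratios of FPKM within a library (vertical axis) for *Col1a1* to *Col1a2*, *Col5a1* to *Col5a2*, *Col1a2* to *Col5a1* and *Col1a2* to *Col5a3* at each phase. Points are libraries, bars are means and error bars are SD. The ratios of *Col1a1* to *Col1a2* and of *Col5a1* to *Col5a2* have lower means at WL2 than at Pre. Those of *Col1a2* to *Col5a1* and to *Col5a3* are higher at WL1 and WL2 than at Pre. Of 15 pairs, 0 are past the adjusted threshold, which a single pair alone could not pass.

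Genes that act on procollagen were next described in the order of their roles, as counts over lists of known genes. Of all genes tested, 2.60% passed as higher at WL1 and 3.35% at WL2. Of 18 tested hydroxylases, glycosyltransferases and chaperones, 2 passed as lower at WL1 and 4 as lower and 1 as higher at WL2, both against Pre. Their medians on the log2 scale were 0.0039 and -0.06. *Serpinh1*, the collagen chaperone HSP47, fell by 0.87 on the log2 scale at WL1 (edgeR adjusted p = 0.00344) and by 1.22 at WL2 (0.000258). The prolyl 3-hydroxylase gene *P3h1* fell by 0.49 (edgeR adjusted p = 0.0231) and by 0.95 (0.000446). At WL2 the lysyl hydroxylase genes *Plod1* (-0.70, edgeR adjusted p = 0.00249) and *Plod3* (-0.41, 0.0329) were lower, and *P3h4*, which works with a lysyl hydroxylase, was higher (0.85, 0.0157). Most of the list thus did not pass, and the chaperone had the largest change among those that did. The calls lost without 1 library were *P3h1* at WL1 (Pre replicates 1 or 3, WL1 replicates 1 or 3, adjusted p up to 0.0888), *Plod3* (Pre replicates 1 or 2, WL1 replicate 2, WL2 replicates 2 or 3, up to 0.127) and *P3h4* (WL2 replicates 2 or 3, up to 0.0660).

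Of 8 tested genes of propeptide proteases and their enhancers, 1 passed as lower at WL1 and 4 at WL2, and all 8 had a negative log2 fold change at WL2 (median -0.79). *Pcolce2*, an enhancer of C-propeptide removal, fell by 1.05 on the log2 scale at WL1 (edgeR adjusted p = 0.000433) and by 1.54 at WL2 (1.51e-05). *Adamts2*, which removes N-propeptides, fell by 1.03 at WL2 (edgeR adjusted p = 0.000837) and *Bmp1*, the C-proteinase, by 0.81 (0.00278). *Tll2*, a relative of *Bmp1*, also passed (-3.47, edgeR adjusted p = 0.0382) at a mean of 0.114 CPM at WL2 against 1.31 at Pre, and lost its call without Pre replicates 2 or 3 or any WL2 replicate (adjusted p up to 0.113). Of 5 lysyl oxidase genes, 0 passed at WL1 (1 at an unadjusted p under 0.05 and 1 with DESeq2) and 1 at WL2, *Lox* itself (-1.001, edgeR adjusted p = 0.00282), and all 5 had negative values at WL2 (median -0.53).

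Among 16 fibril-binding proteoglycans and glycoproteins, the calls went both ways. At WL1, *Thbs2* (thrombospondin 2) was higher and *Col12a1* and *Prelp* were lower. At WL2, 4 were higher and 3 lower (median -0.31). *Thbs2* was higher by 2.59 on the log2 scale at WL1 (edgeR adjusted p = 0.000347) and by 3.00 at WL2 (4.82e-05). *Podn* (1.36, edgeR adjusted p = 0.00353), *Ogn* (1.08, 0.00972) and *Dcn* (0.84, 0.0215), genes of small leucine-rich proteoglycans, were higher at WL2. *Col12a1*, a collagen on the surface of fibrils, was lower at WL1 (-0.97, edgeR adjusted p = 0.0233) and at WL2 (-1.86, 0.000579). *Prelp*, also a leucine-rich proteoglycan, was lower as well, by -0.60 (edgeR adjusted p = 0.0168) and -0.91 (0.00111), as was *Sparc*, a collagen-binding protein, at WL2 (-1.36, 0.000567). *Dcn* at WL2 lost its call without Pre replicates 1 or 2 or WL2 replicates 2 or 3 (edgeR adjusted p up to 0.0866). At WL1, *Col12a1* lost its call without Pre replicates 2 or 3 or any WL1 replicate (up to 0.0776) and *Prelp* without Pre replicate 1 or WL1 replicates 2 or 3 (up to 0.0639).

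Of 13 tested genes of collagen breakdown, 2 passed as higher at WL1 and 1 as lower at WL2. At WL1 these were *Ctsk* (cathepsin K, 1.75, edgeR adjusted p = 0.0336) and *Mmp14* (a membrane-bound collagenase, 0.81, 0.0262). At WL2, *Mrc2*, the receptor that takes up collagen fragments, was lower (-2.38, edgeR adjusted p = 1.54e-05). Of 8 collagen receptors, *Ddr1* was lower at WL1 (-1.40, edgeR adjusted p = 0.00127) and at WL2 (-1.76, 0.000154), and *Lair1*, an immune receptor for collagen, was higher at WL1 (1.67, 0.0410). Of 14 genes of TGF-beta signals, *Tgfbr1* was higher (0.77, edgeR adjusted p = 0.0377) and *Ltbp3*, which holds latent TGF-beta in the matrix, lower (-0.44, 0.0454) at WL1, and *Ltbp3* alone passed at WL2 (-0.93, 0.000846). *Tgfb1* did not pass (WL2, -0.46, edgeR adjusted p = 0.210). At WL1 the calls of *Ctsk*, *Mmp14*, *Lair1*, *Tgfbr1* and *Ltbp3* were each lost without at least 4 of the 9 libraries in turn (edgeR adjusted p up to 0.139).

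For WL2 against WL1, the calls were 3 lower (*Plod1*, *Colgalt1*, *P3h1*) and 1 higher (*P3h4*) of the 18 hydroxylases, glycosyltransferases and chaperones, 2 lower of the 8 propeptide genes (*Pcolce2*, *Adamts2*), 1 lower lysyl oxidase (*Lox*) and 2 lower of the 16 fibril-binding genes (*Sparc*, *Col12a1*). In this comparison 1.31% of all genes tested passed as higher and 2.37% as lower. Of the breakdown genes *Mrc2* (-1.98, edgeR adjusted p = 0.000407) and *Mmp2* (-0.98, 0.0449) were lower and the inhibitor gene *Timp4* was higher (1.09, 0.0133), and *Tgfbr1* and *Ltbp3* were lower. Of the 17 calls over all lists in this comparison, 2 stood with each library left out (*Mrc2* and the adipocyte gene *Lep*), against 19 of 25 at WL2 and 8 of 17 at WL1, both against Pre. Other fibrillar collagen genes were low, at 0.619 to 1.30 FPKM summed over 5 genes in any library. The highest of them in CPM was *Col27a1*, with means of 7.54 at Pre, 10.2 at WL1 and 6.55 at WL2. Of the 3 tested, 0 passed in any comparison with edgeR or DESeq2, with 1 at an unadjusted p under 0.05, at WL2 against WL1.

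**Figure D4:**
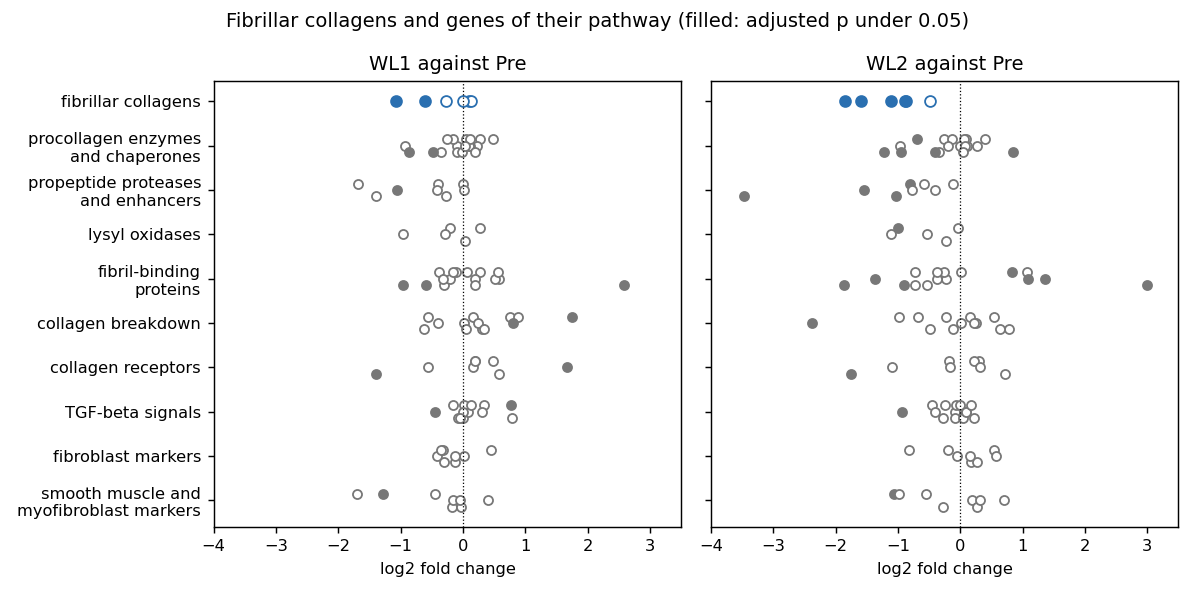
Log2 fold changes from edgeR (horizontal axis) of the 6 genes and of the genes on the lists at WL1 and WL2 against Pre, 1 row per list. Each point is a gene, and filled points have an adjusted p under 0.05. At WL2 the 6 fibrillar collagen genes, the propeptide proteases and the lysyl oxidases lie to the left of 0 as groups, while the fibril-binding genes spread to both sides.

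Marker genes of the cell types in the tissue were measured beside these results. Of 8 fibroblast markers other than collagens, 0 passed in any comparison with edgeR as used for the collagen genes. At WL1 against Pre, WL2 against Pre and WL2 against WL1, 2, 2 and 3 had an unadjusted p under 0.05. Other settings called some at WL2 against Pre, 2 with no filter on low counts, 1 with library totals and 1 with DESeq2. With no filter 1 also passed at WL2 against WL1. Their log2 fold changes went both ways. At WL1 against Pre, 6 of 8 were negative (median -0.22), from -0.42 for *Dpp4* to 0.45 for *Pdgfra*. At WL2 against Pre, 3 of 8 were negative (median 0.16), from -0.81 for *Fbn1* (edgeR adjusted p = 0.104) to 0.57 for *Dpp4* (0.419), with *Pdgfra* at 0.53 (0.0942). Their summed level was 359 to 449 FPKM at Pre, 319 to 423 at WL1 and 436 to 454 at WL2. The summed level of fibroblast markers at WL2 overlapped its range at Pre and lay above its range at WL1. How this sum relates to the levels of the 6 collagen genes, which were lowest at WL2, was not tested. Of 8 smooth muscle and myofibroblast markers, *Acta2* was lower at WL1 (-1.28, edgeR adjusted p = 0.000532) and WL2 (-1.06, 0.000560), and the other 7 did not pass with edgeR as used for the collagen genes. With DESeq2 or with no filter, 2 of the 8 passed at WL1 against Pre. An unadjusted p under 0.05 was found for 2 of the 8 at WL1 and for 2 at WL2, both against Pre. At WL1, 7 of the 8 had negative values (median -0.17). At WL2, 4 were negative and 4 positive (median -0.05), the positive ones being *Tagln* (0.71), *Lmod1* (0.32), *Tpm2* (0.27) and *Myl9* (0.18). The list summed to 222 to 272, 129 to 152 and 147 to 187 FPKM at the 3 phases, and *Acta2* was its most abundant gene in CPM at Pre, with a mean of 365 against 63.2 for *Myh11*, the next.

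Adipocyte markers, the defining genes of the labelled tissue, were present in every library and summed to 8310 to 10910 FPKM at Pre, 5102 to 7024 at WL1 and 9422 to 11222 at WL2. Of 9, 4 were lower at WL1 (*Retn*, *Cidec*, *Lep*, *Plin1*), and at WL2 *Lep* and *Cidec* were lower and *Cfd* higher. At WL2 against WL1 *Lep* was lower and *Retn* and *Cfd* were higher. With 1 library left out, the calls of *Plin1* at WL1 and *Cfd* at WL2 against Pre could be lost (edgeR adjusted p up to 0.124 and 0.0968). Macrophage markers summed to 723 to 1271, 1315 to 2619 and 798 to 1488 FPKM, endothelial markers to 428 to 653, 337 to 663 and 464 to 594, and mesothelial markers to 11.5 to 111, 13.2 to 67.0 and 71.9 to 208. In these 3 lists of 8 genes, 0 passed in any comparison with edgeR as used for the collagen genes. At WL1 against Pre, however, 7 of 8 macrophage markers had positive values (median 0.70), 4 had an unadjusted p under 0.05, and *Adgre1* (1.42, edgeR adjusted p = 0.0559) and *Cd68* (1.52, 0.0566) lay just over the threshold. With library totals 2 macrophage markers passed as higher, and 3 did with DESeq2 or with no filter on low counts. At WL2 against WL1, 6 macrophage and 7 mesothelial markers had an unadjusted p under 0.05. There 4 macrophage markers passed as lower and 7 mesothelial markers as higher with no filter, and 1 and 0 passed with DESeq2. Of the endothelial markers 1 had an unadjusted p under 0.05, at WL2 against Pre, and 0 passed with DESeq2. Liver markers summed to 4.01 to 50.6, 2.501 to 49.6 and 1.64 to 3.04 FPKM, and 1 of 6 passed with edgeR as used for the collagen genes. This was *Apoa2* at WL2 against Pre (-4.43, edgeR adjusted p = 0.0459), which lost its call without Pre replicates 2 or 3 or any WL2 replicate (up to 0.150). All 6 had negative values there (median -4.53) and an unadjusted p under 0.05, and 6 passed with no filter and 2 with DESeq2. For WL2 against WL1, 4 had an unadjusted p under 0.05, and 4 passed with no filter and 1 with DESeq2. Markers of epididymis and testis summed to at most 1.81 FPKM, with up to 6 of the listed genes at 0 in a library and 1 not found, and 0 of the 2 tested passed with edgeR or DESeq2, with 1 at an unadjusted p under 0.05, at WL1 against Pre. The part of the cell types in the collagen results was not tested.

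The genes outside the 6 whose pattern was most like theirs were sought among 9700 protein-coding genes, by the Pearson correlation over 9 libraries with the mean of the 6 genes' centred log2 CPM. They were *Eno1b* (r = 0.976), *Adamts2* (0.973), *Tph2* (0.968), *Gys2* (0.967) and *Lox* (0.965). *Adamts2*, the procollagen N-proteinase, had 217 to 260 CPM at Pre, 176 to 222 at WL1 and 107 to 128 at WL2. *Lox*, the founding lysyl oxidase, had 107 to 141, 90.3 to 118 and 52.5 to 71.2 CPM. *Tph2*, an enzyme of serotonin synthesis, went from 29.5 to 81.8 CPM at Pre to 5.65 to 18.5 at WL1 and 0.567 to 0.927 at WL2. *Gys2*, a glycogen synthase, went from 15.98 to 29.3 CPM at Pre to 4.32 to 10.8 and 0.931 to 1.19. *Eno1b* is a near-identical copy of *Eno1*, so its counts are uncertain. These points share their libraries and the scaling of those libraries, and the correlations are a description.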

How the data were processed

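RNA of epididymal adipose tissue was sequenced in 9 libraries, 3 per phase, grouped by their labels. The authors deposited raw counts per gene and FPKM per gene for 56748 genes. The submitters' processing notes name CASAVA, HISAT, HISAT2, TopHat2, GRCm38 and mm10, while for counting program, strand setting and annotation nothing is given in the sources used here. Taken back from the deposited FPKM of the 6 genes, the library total was the summed counts times a factor of 1.07 to 1.11 in WL1 libraries, 1.11 to 1.12 in WL2 libraries and 0.995 to 1.01 in Pre libraries, so the authors scaled FPKM otherwise than by summed counts. The columns that matched no sample numbered 0. No libraries of a phase were identical (chi-square per degree of freedom 9.13 to 48.9).

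Genes reaching 0.5 CPM in any library (18510) were tested on the counts in R 4.3.3 with edgeR 4.0.16 (glmQLFit, glmQLFTest, TMM factors, 1 model over 9 libraries without covariates, common dispersion 0.0478), with Benjamini-Hochberg adjustment and a threshold of 0.05. Alternatives were DESeq2 1.42.0, limma 3.58.1 on log2(FPKM + 1) and log2(FPKM + 0.1), other scalings and filters, a replicate block, the 2 compared phases alone and each library left out. Ratios were tested by exact permutation on log2 values. The scripts were tested on simulated data.

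The 16 lists hold 152 genes, of which 151 were found and 142 tested. Named are the 6 members, of each list up to 3 genes with the largest change among those past the threshold in each comparison and any that passed the other way than most at WL2 against Pre, and the 5 genes of most similar pattern with a mean of at least 10 CPM. *Plod3*, *Bmp1*, *Plin1*, *Tgfb1* and the markers that did not pass were named after their values were seen. Members and lists were chosen with earlier results of these data known.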

Additional observations from a re-analysis of the deposited data

How the results depend on the processing

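The falls of *Col5a1*, *Col5a2* and *Col5a3* at WL2 and of *Col5a3* at WL1, both against Pre, passed under all 10 other settings and with each of the 9 libraries left out. The members called at WL2 against WL1 numbered 6 with no filter and 6 with DESeq2, in place of 3. With 1 library left out the members called were 1 to 2 (WL1 against Pre), 3 to 5 (WL2 against Pre) and 0 to 4 (WL2 against WL1), all genes called were 512 to 1500, 743 to 1688 and 37 to 1351, the calls over the lists were 9 to 19, 19 to 29 and 2 to 23, and the ratios past the threshold were 0 to 9. All genes called at WL1 against Pre were 1350, and 2344 with DESeq2. At WL2 against WL1 they were 681, and 1668 with no filter, 1935 with DESeq2 and 1053 from the 2 compared phases alone. The calls over the lists went from 17 to 31 with DESeq2 for WL1 against Pre, and from 17 to 45 for WL2 against WL1 with no filter, 33 with DESeq2 and 11 with limma at either pseudocount. At WL2 against Pre, *Col3a1* lost its call with limma at both pseudocounts (adjusted p = 0.0567 and 0.0543), and *Col1a1* passed with no filter (0.00604), with a filter in 3 libraries (0.0452) and from the 2 phases alone (0.0281). At WL2 against WL1, *Col5a2* lost its call with limma on log2(FPKM + 1) (0.0534). The value of *Col3a1* at WL1 against Pre, 0.0018, turned to -0.012 with RLE factors and with DESeq2, -0.035 with upper-quartile factors, -0.028 with a filter in 3 libraries, -0.066 and -0.067 with limma, -0.015 from the 2 phases alone, -0.13 without Pre replicate 1 and -0.37 without WL1 replicate 3. Without WL1 replicate 2, the values of *Col1a1*, *Col1a2* and *Col3a1* at WL1 against Pre were 0.29, 0.31 and 0.17. *Col1a1* turned to -0.090 without Pre replicate 1 and -0.22 without WL1 replicate 3, and *Col1a2* to -0.15 without the latter. The log2 change of the ratio of *Col1a1* to *Col3a1* from Pre to WL2 turned to -0.020 without Pre replicate 1 and -0.017 without Pre replicate 3. The causes were not tested.

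No pairing of libraries by replicate number was seen (1 of 9 correlations of same-numbered deviations over 0.1, range -0.277 to 0.107). With 3 libraries per phase this cannot show that there was none. With a replicate block, 844 genes were called between WL1 and Pre and 330 between WL2 and WL1, with 9 calls over the lists in the latter, and *Col3a1* at WL1 was at -0.036. For the ratios the smallest p with the block is 0.0278, and 0 pairs passed. The SE was 0.20 to 0.25 on the log2 scale for the type I and III genes and 0.14 to 0.18 for type V, from the same libraries.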
